A study of Mus musculus with 9 samples.

Results

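The PAR bZIP factors Dbp, Tef and Hlf, their D-box antagonist Nfil3, and the basic helix-loop-helix repressors Bhlhe40 (DEC1) and Bhlhe41 (DEC2) are transcription factors that carry the output of the circadian clock. The 6 genes were taken by symbol from a list, by a rule that did not use their values. Earlier results of these data were known when the list was chosen. All 6 were found among the 47729 genes of the count table and among the 13324 genes that passed the filter on low counts. RNA came from C2C12, an established line of mouse myoblasts that form multinucleate myotubes in horse serum. The 3 cell populations were a control treated with a guide RNA that has no target (WT), and populations in which Per1 (Per1KO) or Per2 (Per2KO) was knocked out with CRISPR-Cas9, so that all 3 had been exposed to a guide. Each was sampled undifferentiated in fetal bovine serum (day 0) and on days 3 and 5 of differentiation, giving 9 libraries, 1 for each combination. The labels give the tissue as whole muscle but the growth protocol describes cultured C2C12 cells. They do not say whether a population was a clone or a pool, nor at which circadian phase the cells were lysed.

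The clock activators CLOCK and BMAL1 bind E-boxes, and at many promoters PER and CRY proteins switch them off again. Dbp, Tef and Hlf are outputs of this loop that bind the D-box as activators, while Nfil3 (E4BP4) binds the same D-box as a repressor and is itself held down through ROR elements by the repressors REV-ERB alpha and beta. Bhlhe40 and Bhlhe41 are E-box genes whose proteins compete for E-boxes and repress CLOCK and BMAL1 targets, and in muscle they are also known for responses to hypoxia and for effects on myogenic factors.

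The promoters were read for the elements through which the clock is known to act. The groups compared below are defined by what the proteins bind, not by these matches. Of the 6 genes, 5 had an entry in RefSeq's GRCm38.p6 promoter sequences and Bhlhe40 did not; Tef had 2 start sites. In the 250 bases before each start site, a canonical E-box (CACGTG, its own reverse complement) was found at both Tef start sites and in Bhlhe41, a ROR core (TAGGTCA on either strand) in Nfil3, and a cAMP response element (TGACGTCA) in Hlf. The 30-base windows below hold these matches, 5′ to 3′ on the strand of the gene, with the matched letters in capitals; in Nfil3 the core lies on the opposite strand and so appears as its reverse complement.
Tef, start site 1, chr15:81802534-81802563, plus strand: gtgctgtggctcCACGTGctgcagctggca
Tef, start site 2, chr15:81811264-81811293, plus strand: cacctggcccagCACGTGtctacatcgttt
Bhlhe41, chr6:145865556-145865585, minus strand: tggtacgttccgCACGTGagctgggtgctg
Nfil3, chr13:52981040-52981069, minus strand: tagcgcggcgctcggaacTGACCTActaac
Hlf, chr11:90390918-90390947, minus strand: atcggcgcgcggtgcgggcccTGACGTCAc
The E-box began 127 and 138 bases before the 2 Tef start sites and 153 bases before that of Bhlhe41, the ROR core 12 bases before that of Nfil3, and the cAMP response element 9 bases before that of Hlf. These distances are from the RefSeq start sites. By the GENCODE M21 positions given below, the 30-base windows of Tef (both), Nfil3 and Bhlhe41 overlap the gene itself, and that of Hlf does not. The position of a match before the start thus depends on the annotation. Among 32817 promoter windows of the same length, 6.02% held CACGTG, 2.24% held TAGGTCA and 1.55% held TGACGTCA on either strand. Neither D-box searched (TTATGTAA, in 0.817% of all windows, and TTACGTAA, in 0.113%) matched in any window of the 5 genes. Dbp matched only the shorter ACGTG, which 16.6% of all windows hold and which overlaps the canonical E-box. A match of letters does not show binding, and a window without one says only that the letters are not in it.

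In GENCODE M21 on GRCm38, Dbp (ENSMUSG00000059824) lies on chromosome 7 from 45705088 to 45710203, Tef (ENSMUSG00000022389) on chromosome 15 from 81802421 to 81826863, and Bhlhe40 (ENSMUSG00000030103) on chromosome 6 from 108660629 to 108666925, all on the plus strand. On the minus strand are Hlf (ENSMUSG00000003949) on chromosome 11 from 90336536 to 90390895, Nfil3 (ENSMUSG00000056749) on chromosome 13 from 52967209 to 52981073, and Bhlhe41 (ENSMUSG00000030256) on chromosome 6 from 145858243 to 145865558. Of the 31-base words of the longest transcript, the share found in some other gene was 0% for Hlf and Nfil3, 2.92% for Bhlhe40, 3.73% for Tef, 10.3% for Bhlhe41 and 28.3% for Dbp. Dbp shares 539 exonic bases with Sphk2 on the opposite strand, and its counts are uncertain to that extent because the use of strand is not given in the sources used here. Sphk2 stood at 29.2, 27.4 and 37.0 CPM in WT on days 0, 3 and 5, at 19.1, 20.7 and 28.2 CPM in Per1KO and at 19.6, 19.9 and 26.6 CPM in Per2KO. It was lower in both knockouts than in WT on every day. Dbp was also lower than WT in Per2KO on every day and in Per1KO on days 0 and 5. In Per1KO on day 3 Dbp was not lower (14.8 against 12.6 CPM in WT). The part of Sphk2 reads in the Dbp counts was not tested.

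WT libraries held 5020385 to 6773320 counts and knockout libraries 41997763 to 48051824, and only the WT titles carry a lane suffix. Wherever WT is compared, depth, lane and genotype cannot be told apart. Levels are depth-scaled counts (CPM in edgeR, after TMM scaling), with 95% Poisson intervals where given, which cover counting error only. No library had a replicate. The error of the additive fit was the departure of the 9 libraries from added genotype and day terms, for both kinds of test. A response to differentiation that differed between genotypes thus counted as error there. The p-values speak of these populations only. Per1 mRNA did not differ from WT past the threshold in Per1KO (log2 fold change -0.34, adjusted p = 0.310). Per2 mRNA was lower in Per2KO (-1.02, adjusted p = 0.0230). Per2 in Per1KO (-0.62, adjusted p = 0.111) and Per1 in Per2KO (-0.40, adjusted p = 0.232) did not pass. Per2 in Per1KO against Per2KO was at 0.41 and did not pass either (adjusted p = 0.9996). The fall of Per2 was thus not shown to be specific to Per2KO. An mRNA level does not by itself tell whether a gene was disrupted. All 10 muscle-lineage markers exceeded 1 CPM in some library, whereas the summed markers of adipocytes (Adipoq and Lep at 0) reached at most 0.0591 CPM, of nerve (Snap25 at 0) 1.69 CPM, of blood (Adgre1 and Hbb-bs at 0) 3.39 CPM, and of endothelium 3.62 CPM. The fibroblast-associated genes Pdgfra, Ly6a and Dcn summed to 453 to 967 CPM in WT and 161 to 1309 CPM in the knockouts. In bulk RNA, fewer expressing cells and less RNA per cell cannot be told apart.

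**Figure D1:**
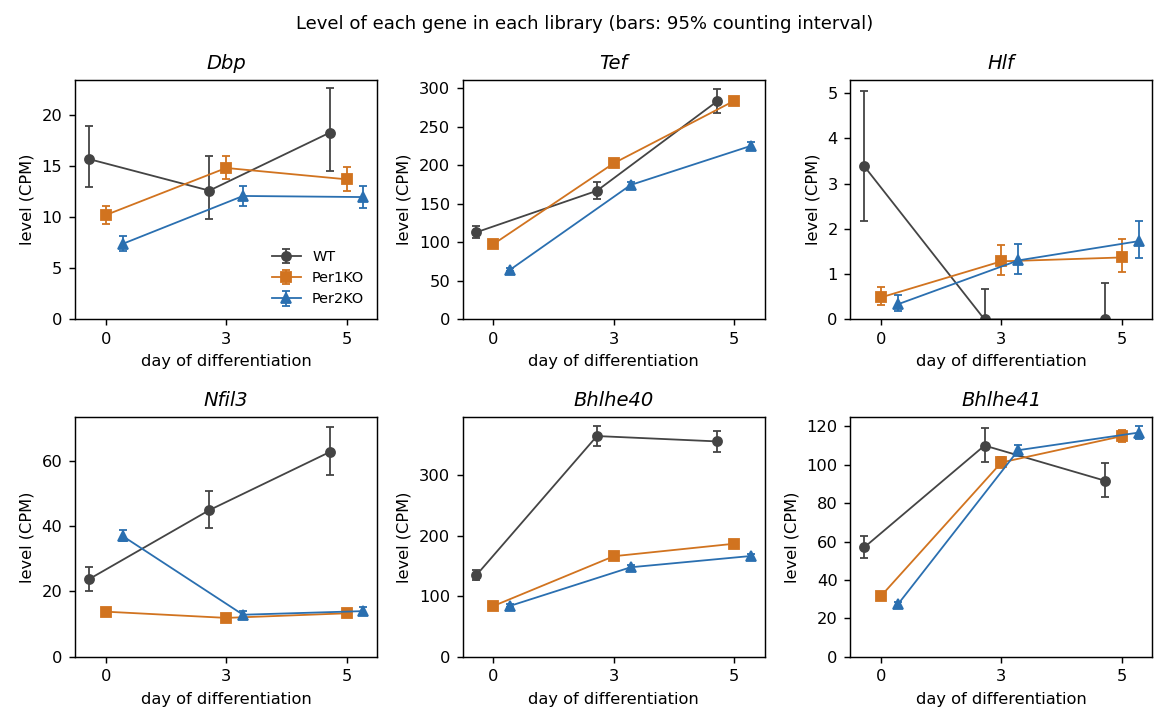
Level of each of the 6 genes in CPM (vertical axes, linear from 0) on days 0, 3 and 5, with 1 point per library, colour for genotype and bars for the 95% counting interval. Tef, Bhlhe40 and Bhlhe41 lie higher on days 3 and 5 than on day 0 in every genotype, Bhlhe40 lies lower in the knockouts on every day, and Nfil3 runs from 23.7 to 62.7 CPM in WT, from 11.9 to 13.8 CPM in Per1KO and from 37.0 down to 12.9 CPM in Per2KO.

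Per kilobase of the longest transcript, Bhlhe40 and Tef were the most abundant of the 6 mRNAs in WT and Hlf the least. In WT on day 0 Bhlhe40 stood at 43.4 CPM per kb, Tef at 25.7, Nfil3 at 11.7, Bhlhe41 at 9.28, Dbp at 8.53 and Hlf at 0.601. Nfil3 and Bhlhe41, and Bhlhe41 and Dbp, were neighbours whose counting intervals overlapped there. By day 5, Nfil3 was at 30.9 CPM per kb in WT, the third of the 6, but at 6.57 in Per1KO and 6.90 in Per2KO, next to Dbp at 7.45 and 6.51. Tef on day 5 was at 64.3, 64.4 and 51.2 CPM per kb in WT, Per1KO and Per2KO and Bhlhe40 at 114, 60.0 and 53.5. In Per1KO on that day, 2 of these orders turned when all annotated exons were used as the length, with 36.1 for Tef below 39.7 for Bhlhe40, and 6.57 for Nfil3 above 4.57 for Dbp.

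Of the D-box activators, Tef rose in all 3 populations during differentiation. It was at 113, 167 and 283 CPM in WT on days 0, 3 and 5, at 97.6, 203 and 284 CPM in Per1KO, and at 64.6, 174 and 225 CPM in Per2KO. All 6 libraries of days 3 and 5 lay above all 3 of day 0. From day 0 to day 5 Tef was 2.50-fold higher in WT (2.29 to 2.74), 2.91-fold in Per1KO (2.81 to 3.01) and 3.49-fold in Per2KO (3.35 to 3.63). In the additive model, its log2 fold change was 1.02 ± 0.16 (SE) on day 3 (edgeR adjusted p = 0.00278) and 1.55 ± 0.16 on day 5 (adjusted p = 2.29e-04) against day 0. The further difference of 0.53 ± 0.16 from day 3 to day 5 was in the same direction in 3 of 3 genotypes but did not pass (adjusted p = 0.177; 0.0473 without the WT library of day 0). Neither knockout passed against WT in the additive fit, with 0.01 ± 0.16 in Per1KO (adjusted p = 0.963) and -0.36 ± 0.16 in Per2KO (adjusted p = 0.157). Per1KO held 0.863 times the WT level on day 0 (0.801 to 0.931), 1.21 times on day 3 (1.13 to 1.30) and 1.00 times on day 5 (0.945 to 1.06). Per2KO was below WT on days 0 and 5, at 1.75-fold and 1.26-fold less, and the counting interval of its ratio to WT on day 3 spanned 1.

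Dbp, the classical D-box activator of liver output genes, was low in every library. Its level in WT was 15.7, 12.6 and 18.3 CPM on days 0, 3 and 5, from only 111, 69 and 83 counts. Per1KO held 10.2, 14.8 and 13.7 CPM and Per2KO 7.38, 12.07 and 11.96 CPM. On day 0 Dbp was 1.54-fold lower in Per1KO and 2.12-fold lower in Per2KO than in WT, and on days 3 and 5 the 3 genotypes lay closer together. Averaged over days, Per1KO differed by -0.29 ± 0.21 on the log2 scale (adjusted p = 0.356) and Per2KO by -0.60 ± 0.21 (adjusted p = 0.0778), lower on 3 of 3 days in Per2KO but past the threshold in neither. Without the WT day 3 library, the Per2KO difference was -0.84 and passed (adjusted p = 0.0179). Against day 0, Dbp differed by 0.36 (adjusted p = 0.1999) on day 3 and 0.45 ± 0.20 (adjusted p = 0.102) on day 5. In a fit of the 6 knockout libraries alone it rose, by 0.62 ± 0.12 on day 3 (adjusted p = 0.00611) and by 0.56 on day 5 (adjusted p = 0.00802); in WT the counting intervals of both day ratios spanned 1. Both day differences also passed without the WT library of day 0 (adjusted p = 0.0340 and 0.0181) or that of day 3 (0.0280 and 0.0269).

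Hlf, the third PAR bZIP activator, was near the limit of detection and moved in opposite directions in WT and in the knockouts. In WT it had 24 counts on day 0 (3.39 CPM, 2.17 to 5.04) and 0 counts on days 3 and 5, where the floor of 3 counts is 0.547 and 0.660 CPM and the upper Poisson limits are 0.673 and 0.811 CPM. In Per1KO it had 24, 62 and 57 counts, or 0.487, 1.28 and 1.37 CPM, and in Per2KO 17, 63 and 71 counts, or 0.335, 1.30 and 1.73 CPM. The WT library of day 0 thus held more Hlf than any other, and the WT libraries of days 3 and 5 less than any knockout library of those days. Within WT, Hlf was at least 6.19-fold lower on day 3 and at least 5.14-fold lower on day 5 than on day 0, against the floor of 3 counts in each library. These floor-based folds leave out the counting error of the day 0 library, and the floors lie below the upper Poisson limits. Hlf was 2.64-fold higher on day 3 (1.62 to 4.42) and 2.81-fold on day 5 in Per1KO, and 3.90-fold (2.25 to 7.10) and 5.17-fold (3.01 to 9.36) in Per2KO. Set against WT on the same day, Hlf was 6.96-fold lower in Per1KO and 10.1-fold lower in Per2KO on day 0. On day 3 it was at least 2.35-fold and 2.38-fold higher than WT, and on day 5 at least 2.08-fold and 2.62-fold. These folds use the same floors and leave out the counting error of the knockout libraries. The additive tests against WT, which average over days, did not pass (adjusted p = 0.779 in Per1KO and 0.805 in Per2KO). Without the WT library of day 0, in a fit whose remaining WT libraries both had 0 counts, Hlf was called higher in both knockouts (adjusted p = 0.0128 and 0.0121). In the knockout libraries alone Hlf rose by 1.65 ± 0.31 (log2) on day 3 (adjusted p = 0.00469) and 1.91 on day 5 (adjusted p = 0.00202).

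Nfil3, the D-box repressor, was lower in Per1KO than in WT and ran in opposite directions over the days in WT and Per2KO. It was at 23.7, 44.9 and 62.7 CPM in WT on days 0, 3 and 5. In Per1KO it was at 13.8, 11.9 and 13.3 CPM, and in Per2KO at 37.0, 12.9 and 14.0 CPM. On each day the Per1KO library lay below the WT library, while the Per2KO library of day 0 lay above the WT library of that day. Nfil3 was 1.89-fold higher on day 3 (1.55 to 2.31) and 2.64-fold on day 5 (2.18 to 3.22) than on day 0 in WT, and 2.87-fold lower on day 3 than on day 0 in Per2KO. Compared with WT on the same day, Per1KO was 3.77-fold lower on day 3 and 4.71-fold lower on day 5, and Per2KO 3.49-fold and 4.48-fold lower. On day 0, Per2KO was 1.56-fold higher than WT (1.33 to 1.84) and 2.68-fold higher than Per1KO. In the additive model Nfil3 fell in Per1KO, with a log2 fold change of -1.77 ± 0.48 (edgeR adjusted p = 0.0392, lower on 3 of 3 days). In Per2KO the value was -1.12 ± 0.49 and did not pass (adjusted p = 0.146, lower on 2 of 3 days); without the Per2KO library of day 0 it was -1.78 and passed (adjusted p = 0.0156), and without the WT library of day 0 it was -1.75 (adjusted p = 0.00804). The Per1KO call was lost without any 1 of 7 libraries (all but the day 0 libraries of WT and Per2KO), with adjusted p-values up to 0.158, and with no filter on low counts (0.180). Against day 0, Nfil3 differed by -0.44 on day 3 (adjusted p = 0.496) and -0.16 on day 5 (adjusted p = 0.800) over the 3 genotypes, whose directions differed; without the WT library of day 0 the day 3 value was -0.98 (adjusted p = 0.0332). A least-squares fit of the same additive terms to log2 CPM missed Nfil3 most in Per2KO on day 0. The library lay 0.88 above that fit on the log2 scale, a larger deviation than that of 98.9% of genes in that library.

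Bhlhe40, the E-box repressor also known as DEC1, was lower than WT in both knockouts on every day. It was at 135, 365 and 356 CPM in WT on days 0, 3 and 5. In Per1KO it was at 83.9, 166 and 187 CPM, and in Per2KO at 84.2, 148 and 167 CPM. On each day both knockout libraries lay below WT, by 1.61-fold and 1.60-fold on day 0, 2.19-fold and 2.47-fold on day 3, and 1.90-fold and 2.14-fold on day 5 for Per1KO and Per2KO in turn. The log2 fold change was -0.92 ± 0.14 in Per1KO (edgeR adjusted p = 0.00316) and -1.03 ± 0.14 in Per2KO (adjusted p = 0.00194), lower on 3 of 3 days in each. Bhlhe40 also rose with differentiation in every genotype, 2.64-fold in WT, 2.23-fold in Per1KO and 1.98-fold in Per2KO by day 5. Over the genotypes, the rise was 1.07 ± 0.14 on day 3 (adjusted p = 0.00104) and 1.17 ± 0.14 on day 5 (adjusted p = 3.92e-04). Because both effects were present, knockout libraries of days 3 and 5 lay above the WT library of day 0, and the genotypes overlapped when days were pooled.

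Bhlhe41, which encodes the related repressor DEC2, rose with differentiation and differed from WT mainly before it. Its level was 56.9, 110 and 91.7 CPM in WT on days 0, 3 and 5, 31.6, 101 and 115 CPM in Per1KO and 27.2, 108 and 117 CPM in Per2KO. On day 0 Per1KO held 0.555 times the WT level and Per2KO was 2.09-fold lower than WT, whereas on day 5 both knockout libraries lay above WT. By day 5 Bhlhe41 was 1.61-fold higher than on day 0 in WT, 3.63-fold in Per1KO and 4.29-fold in Per2KO. The rise passed over the 3 genotypes, with 1.52 ± 0.25 on day 3 (adjusted p = 0.00337) and 1.56 ± 0.25 on day 5 (adjusted p = 0.00190). The additive difference from WT did not pass, at -0.24 ± 0.25 in Per1KO (adjusted p = 0.523) and -0.26 ± 0.25 in Per2KO (adjusted p = 0.486).

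**Figure D2:**
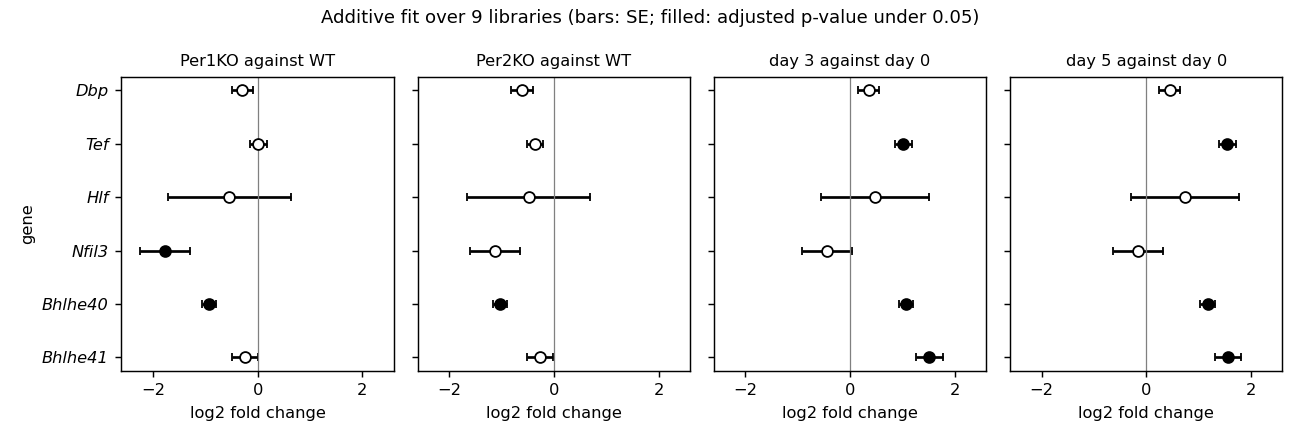
Log2 fold change of each gene (rows) in 4 comparisons of the additive fit of 9 libraries, with bars for the SE and filled points for an adjusted p-value under 0.05. Nfil3 passes in Per1KO only, Bhlhe40 passes in all 4 comparisons, Tef and Bhlhe41 pass in both day comparisons, and the Hlf values rest on 2 WT libraries with 0 counts and depend on the prior count.

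Counted together, the calls against WT were few and all downward, with 2 of the 6 genes in Per1KO and 1 of the 6 in Per2KO. The table as a whole had 19.3% of genes called in Per1KO (10.1% lower, 9.26% higher) and 19.9% in Per2KO (10.6% lower, 9.31% higher), and a count over 6 genes is too small to be set apart from such shares. The median log2 fold change of the 6 was -0.41 in Per1KO and -0.54 in Per2KO, beside -0.02 and -0.01 over all genes tested. The 2 knockouts share the WT libraries, so their values are given side by side and are not independent. Between the knockouts, 0 of the 6 genes were called and 0% of all genes were (edgeR). At an unadjusted p under 0.05 there were 88 of the 13324 genes tested, a smaller share than the threshold of 0.05 itself. Among the 6 there was only Tef, higher in Per1KO by 0.37 ± 0.16 and on 3 of 3 days. DESeq2 called 1 gene and none of the 6. The lack of calls thus does not show that the 2 knockouts were alike. The Nfil3 difference between the knockouts, -0.65 ± 0.46, came from day 0.

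No member separated all 6 knockout libraries from all 3 WT libraries, which 8.11% of genes did downward and 9.83% upward. On day 0 against days 3 and 5, Tef, Bhlhe40 and Bhlhe41 separated fully, all upward, as did 16.5% of genes upward and 15.5% downward. The same 3 of the 6 genes were called higher on day 3 (35% of all genes called, 18.1% higher and 16.9% lower) and on day 5 (46.1% called, 23.2% higher and 22.9% lower) against day 0, and 0 were called lower. From day 3 to day 5, 0 of the 6 were called by edgeR, with 1.79% of all genes called. At an unadjusted p under 0.05 there was 1 member, Tef, beside 1975 of the 13324 genes tested. DESeq2 called 0 of the 6, beside 733 genes in all. In the knockout libraries alone, all 6 genes were called on day 3 against day 0, 5 of them higher and Nfil3 lower (-0.93 ± 0.32, adjusted p = 0.0474). In that fit 57.7% of all genes were called (29.1% higher, 28.5% lower). On day 5, 5 of the 6 were called, all higher, beside 64.4% of all genes (32.2% higher, 32.3% lower), and Nfil3 was at -0.79 (adjusted p = 0.0730).

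**Figure D3:**
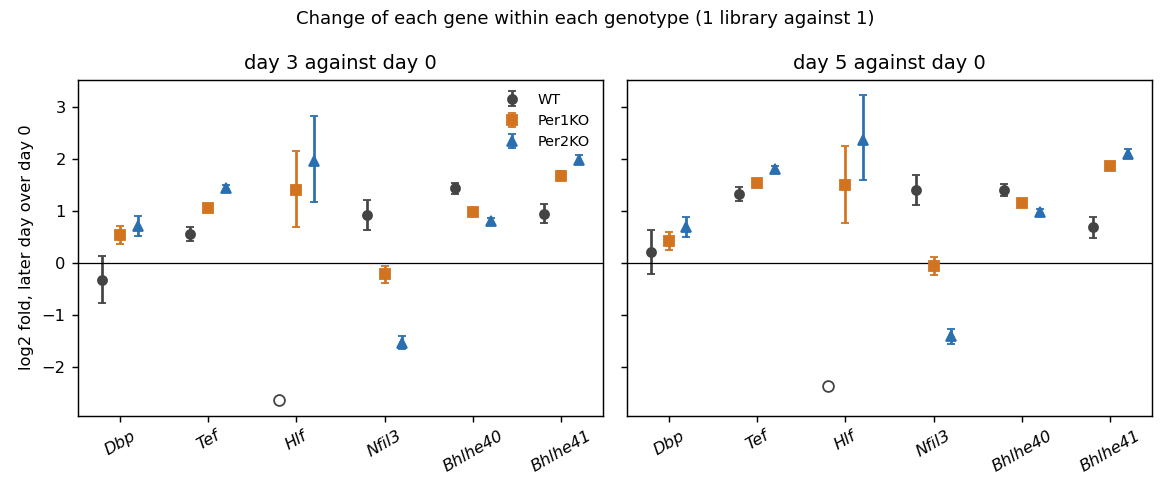
Log2 ratio of day 3 (left) and day 5 (right) to day 0 within each genotype, 1 library against 1, with bars for the 95% counting interval and open circles for Hlf in WT. There the later library had 0 counts, and the value drawn uses the floor of 3 counts for it, without counting error. Tef, Bhlhe40 and Bhlhe41 lie above 0 in all genotypes, while Hlf and Nfil3 lie on opposite sides of 0 in WT and in Per2KO.

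Whether the response to differentiation differed between WT and the knockouts was tested as the interaction of knockout status with days 3 and 5 against day 0. Bhlhe41 rose more in the knockouts, by 1.08 ± 0.22 on the log2 scale (adjusted p = 0.0418), and Hlf rose in the knockouts and not in WT (adjusted p = 0.0131, with no fitted fold given because 2 WT libraries had 0 counts). These 2 of the 6 were called, both with the knockout response higher, beside 4.95% of all genes (3.5% higher, 1.45% lower). The others did not pass: Nfil3 had a value of opposite sign, -2.02 ± 0.52 (adjusted p = 0.0718; 0.0230 without Per1KO day 0), Bhlhe40 was at -0.43 ± 0.17 (adjusted p = 0.190), Dbp was at 0.63 ± 0.30 (adjusted p = 0.257) and Tef at 0.51 ± 0.22 (adjusted p = 0.213). At an unadjusted p under 0.05 there were 5 members, beside 3130 of the 13324 genes tested. DESeq2 called 3 of the 6, beside 1464 genes in all. The Bhlhe41 call was lost without 5 of the 8 libraries that can be left out (Per1KO days 0 and 5 and all 3 of Per2KO, adjusted p up to 0.160), and the Hlf call without Per2KO day 0 (0.0641). The single WT library of day 0 cannot be left out, since the WT response rests on it.

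That WT library also stood apart in its differentiation markers. Myog, which drives the myoblast's entry into differentiation, was at 124 CPM in WT on day 0 but at 5.35 CPM in Per1KO and 2.91 CPM in Per2KO. Embryonic myosin Myh3 was at 140 CPM in WT against 2.51 and 0.79 CPM, and muscle creatine kinase Ckm at 10.6 CPM against 0.34 and 0.24 CPM. Myod1, the myoblast determination factor, was at 155, 87.3 and 58.7 CPM in WT, Per1KO and Per2KO on day 0. On days 3 and 5 Myog was at 868 and 1060 CPM in WT, 262 and 351 CPM in Per1KO and 226 and 271 CPM in Per2KO. Ckm was at 255 and 276 CPM in WT, 151 and 435 CPM in Per1KO and 140 and 332 CPM in Per2KO on those days, so that on day 5 it was higher in both knockouts than in WT. Myh3 was at 4851 and 7214 CPM in WT on days 3 and 5, 2360 and 3216 CPM in Per1KO and 2236 and 2423 CPM in Per2KO. Myod1 was at 164 and 165 CPM in WT, 119 and 138 CPM in Per1KO and 124 and 145 CPM in Per2KO. WT thus carried more Myog, Myh3 and Myod1 on all 3 days, on each of which Bhlhe40 was higher too. WT carried more of all 4 genes on day 0, when Hlf, Dbp and Bhlhe41 were higher, but less Ckm than both knockouts on day 5. The part of these markers in the differences of the clock outputs was not tested.

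To compare the D-box activators with their antagonist, the levels per kilobase of Dbp, Tef and Hlf were summed and divided by that of Nfil3. In WT the ratio was 2.97, 2.02 and 2.40 on days 0, 3 and 5. It was 4.08, 9.24 and 11.0 in Per1KO and 1.03, 7.30 and 8.40 in Per2KO. The ratio was highest in the knockout libraries of days 3 and 5 and lowest in Per2KO on day 0, where the interval of the log2 ratio (-0.04 to 0.12) spanned 0. With all annotated exons as the length every ratio was lower, and in Per2KO on day 0 its log2 was -0.77, with Nfil3 above the activators. Tef made up 73.8% to 89.3% of the activator sum in every library, so that the ratio is in the main that of Tef to Nfil3. In WT both the sum and Nfil3 were higher on the later days, and in the knockouts the sum was higher on the later days while Nfil3 was not. The ratio has 1 value per population and day and carries no test.

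The 2 E-box repressors shifted against each other in the opposite sense in WT and in the knockouts. The ratio of Bhlhe40 to Bhlhe41 per kilobase was 4.67, 6.53 and 7.64 in WT on days 0, 3 and 5. It was 5.23, 3.23 and 3.20 in Per1KO and 6.09, 2.71 and 2.81 in Per2KO. On day 0 both knockout libraries lay above WT, and on days 3 and 5 both lay below it. Taking all annotated exons as the length multiplies every Bhlhe40 to Bhlhe41 ratio by 1 factor and leaves their order as it is.

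**Figure D4:**
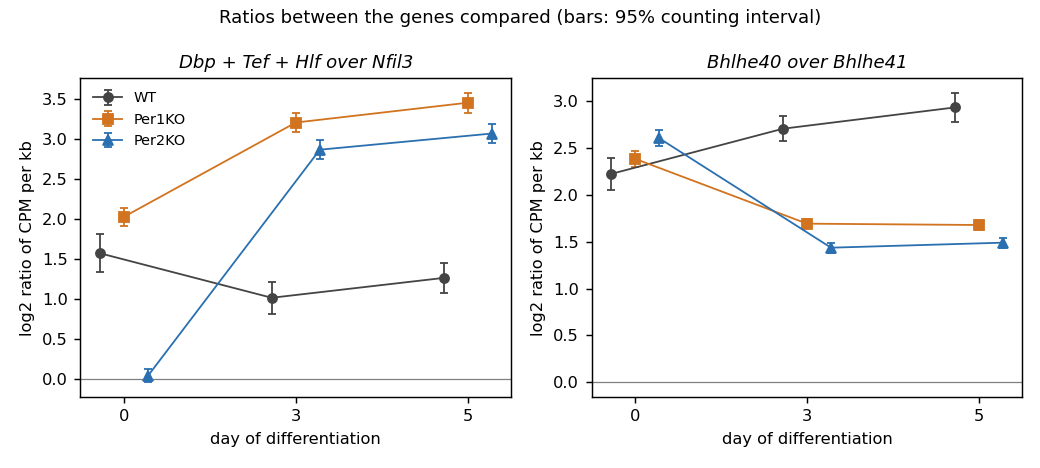
Log2 ratio of levels per kilobase in each library on days 0, 3 and 5, for the activators Dbp, Tef and Hlf over Nfil3 (left) and for Bhlhe40 over Bhlhe41 (right), with bars for the 95% counting interval. On days 3 and 5 the knockout libraries lie above WT on the left (2.87 to 3.46 against 1.01 and 1.26) and below it on the right (1.44 to 1.69 against 2.71 and 2.93).

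The other genes of these pathways were read in the same fits, with log2 fold changes in parentheses. Over all genes tested, 9.26% were called higher and 10.1% lower in Per1KO, and 9.31% and 10.6% in Per2KO. On day 5 against day 0 these shares were 23.2% and 22.9%. No list was tested against the shares over all genes. Of the core clock genes other than the 6, 19 were tested. In Per1KO 1 was higher, the REV-ERB beta gene Nr1d2 (0.52), and 3 were lower, Npas2 (-1.45), the BMAL1 gene Arntl (-1.04) and Cry2 (-0.91), with a list median of -0.10. In Per2KO Nr1d2 was again higher (0.42), the targeted gene Per2 (-1.02) and Cry2 (-0.90) were lower, and the median was -0.04. The other REV-ERB gene, Nr1d1, had values of the opposite sign that did not pass, -0.51 in Per1KO (adjusted p = 0.0913) and -0.60 in Per2KO (adjusted p = 0.0562). Arntl (-0.53, adjusted p = 0.217) and Npas2 (-0.64, adjusted p = 0.1397) were not called in Per2KO. Arntl also differed in its response to differentiation (interaction -1.22, adjusted p = 0.0462), at 26.8, 34.1 and 38.0 CPM in WT, 21.5, 15.3 and 13.0 CPM in Per1KO and 35.9, 20.1 and 16.6 CPM in Per2KO. In WT Arntl and Nfil3 were both higher on the later days, and in Per2KO both were highest on day 0. On day 5 against day 0, 6 clock genes were higher, led by the ROR alpha gene Rora (2.45) and Per2 (0.99), and 2 were lower, Arntl2 (-1.08) and Rorb (-1.04).

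Of 16 genes that PAR bZIP factors or D-boxes are known to control, 10 were tested. Against the 19.3% and 19.9% of all genes called, 1 was higher (Nr1d2) and 0 lower in Per1KO, with a median of -0.24. In Per2KO 1 was higher (Nr1d2) and 1 lower (Per2, the gene targeted there), with a median of -0.33. Per1, Per2, Per3, Cry1, Rora, Nr1d1 and Nr1d2 are also in the core clock list, so their calls are the same ones counted above. On day 5 against day 0 4 of the 10 were higher and 1 lower, beside 23.2% and 22.9% of all genes. Among them were Rora and the heme synthesis gene Alas1 (1.00) upward and the P450 reductase gene Por (-0.43) downward. Of 6 other E-box outputs tested, 2 were higher in Per1KO, the pyruvate dehydrogenase kinase gene Pdk4 (1.51) and the NAD salvage gene Nampt (0.53), and 2 lower, the titin-cap gene Tcap (-1.18) and the deubiquitinase gene Usp2 (-0.88). In Per2KO 1 was higher, Nampt (0.51), and 3 lower, led by Tcap (-2.03) and Usp2 (-0.77). The medians of that list were -0.05 and -0.07.

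Over all genes, 10.1% were called lower in Per1KO and 10.6% in Per2KO. Relatives of Nfil3 among the C/EBP and other bZIP genes were, where called against WT, called lower. Of 20 tested, 0 were higher and 4 lower in Per1KO, led by Cebpa (-1.51), a C/EBP activator, and Fosl2 (-1.47), an AP-1 subunit, with a median of -0.59. In Per2KO 0 were higher and 2 lower, Fosl2 (-1.30) and the AP-1 subunit gene Junb (-0.97), with a median of -0.33. Among 7 Hes, Hey and Id genes, helix-loop-helix repressors like the DEC factors, Heyl was lower in both (-4.04 in Per1KO and -3.88 in Per2KO), and Hes6 (-0.79) and Id1 (-0.72) were lower in Per2KO. The medians were -0.23 and -0.72.

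Bhlhe40 and Bhlhe41 are known targets of hypoxia-inducible factors, and Nfil3 and Bhlhe40 respond to hormone and cAMP signals, so both gene groups were counted. Over all genes, 9.26% were called higher and 10.1% lower in Per1KO, and 9.31% and 10.6% in Per2KO. Of 18 hypoxia-response genes, 0 were higher and 6 lower in each knockout, with medians of -0.56 and -0.58. They were led by carbonic anhydrase gene Car9 (-4.32 in Per1KO and -4.00 in Per2KO) and the adrenomedullin gene Adm (-2.65 and -2.10). On day 5 against day 0, 4 were higher, led by Adm (3.56) and Egln3 (2.54), and 3 lower, beside 23.2% and 22.9% of all genes. Adm on day 0 was at 0.141, 0.0811 and 0.0787 CPM in WT, Per1KO and Per2KO. The floors of 3 counts there are 0.424, 0.0608 and 0.0591 CPM, so the Adm value rests on very few counts. Of 12 glucocorticoid and cAMP response genes, 0 were higher in either knockout, 3 were lower in Per1KO, among them Mt1 (-1.23) and Nr4a1 (-0.89), and 4 in Per2KO, among them Nr4a1 (-1.13) and Mt1 (-1.07). Their medians were -0.58 and -0.64. In the interaction, 1 gene of the glucocorticoid and cAMP list was higher and 1 lower, beside 3.5% and 1.45% of all genes. The response was higher in the knockouts for Sik1, a cAMP-induced kinase gene (0.82, adjusted p = 0.0310), and lower for Sgk1, a kinase gene induced by glucocorticoids (-1.90, adjusted p = 0.0119). Of the hypoxia genes, 0 were higher and 1 was lower, Vegfa (-1.48, adjusted p = 0.0235).

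The genes whose profile over the 9 libraries was most like that of each member were listed by Pearson correlation of log2 CPM among the 9131 eligible genes averaging 10 CPM or more. The points share genotypes, days and depths, and the values are descriptions. Bhlhe41 had the closest neighbours, the sialyltransferase genes St3gal5 (r = 0.996) and St3gal4 (0.995), followed by Pcdhb16 (0.993). Bhlhe40 was most like Rnf122 (0.990), Rrad (0.988) and Selenom (0.987), and Nfil3 most like the alanine transaminase gene Gpt2 (0.989), Trim35 (0.981) and Dync1li1 (0.980). Tef was most like Dda1 (0.983), the ryanodine receptor gene Ryr1 (0.982) and Ptprf (0.981). Dbp had Pdgfrb (0.950), the clock gene Per3 (0.947) and B4galt5 (0.946), and Hlf had Rev3l (0.956), Itga3 (0.942) and Vegfb (0.941), on counts that are low throughout.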

How the data were processed

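Poly(A) RNA libraries (TruSeq kit, single reads, Illumina HiSeq, per the labels' protocols) gave whole-number read counts per Ensembl gene, used as the authors deposited them. The submitters' processing notes name CASAVA 1.8, HISAT2 2.1.0 and mm10; the counting program, annotation and use of strand are not given in the sources used here. Symbols, positions and transcript lengths came from GENCODE M21 by gene ID (47224 of 47729 matched), and promoter windows from RefSeq. The labels put 1 library in each genotype and day.

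The 13324 genes that reached 1 CPM in 3 or more of the 9 libraries were TMM-scaled and tested with edgeR 4.0.16 (quasi-likelihood, robust, R 4.3.3, limma 3.58.1), and p-values were adjusted by Benjamini-Hochberg over all of them, with calls under 0.05. Genotype and day were additive (4 residual degrees of freedom); the interaction of knockout with days 3 and 5 left 3. Every adjusted p-value is from these fits unless DESeq2 1.42.0 is named. Ratios of 2 libraries have no replicate check. Alternatives were DESeq2, other scalings and filters, fits of fewer libraries, a prior count of 0.5 in place of 2, and exon-union lengths. The fitting code was tested on simulated counts.

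The members and gene lists were chosen with earlier results of these data known. Named genes are the 6 members, Per1 and Per2, up to 2 called genes with the largest rise and 2 with the largest fall per list and comparison, the 3 genes most like each member, and Myod1, Myog, Myh3 and Ckm. Sphk2 and Nr1d1 were added, and Arntl, Npas2, Ckm, Myh3, Myod1, Per1 and Per2 given more values, after these were seen. The listed hypoxia gene Ero1a had no match. DNA of the edited Per1 and Per2 sites was not analysed here.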

Additional observations from a re-analysis of the deposited data

Results flagged for a closer look

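The response of Hlf to differentiation differed between the knockouts and WT by the interaction test (edgeR adjusted p = 0.0131). Hlf had 24 counts in WT on day 0 and 0 on days 3 and 5, while it rose from 24 to 62 and 57 counts in Per1KO and from 17 to 63 and 71 in Per2KO. A least-squares fit of added genotype and day terms to log2 CPM (prior count of 2) missed Hlf in the WT library of day 0 by 3.33. That was more than it missed 99.98% of genes there. With 0 counts in the other WT libraries, the value depends on the prior count. The Bhlhe41 response differed by the same test (adjusted p = 0.0418), with a 1.61-fold rise by day 5 in WT against 3.63-fold in Per1KO and 4.29-fold in Per2KO. Both tests rest on 1 WT library of day 0.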

How the results depend on the processing

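Bhlhe40 was called lower in both knockouts under all 16 alternatives (adjusted p at most 0.0249 in Per1KO and 0.0193 in Per2KO), and Tef, Bhlhe40 and Bhlhe41 were called on days 3 and 5 against day 0 under all 17. Nfil3 was called in Per1KO under 8 of 16 and in Per2KO under 3 of 16, and in the interaction Bhlhe41 was called under 9 of 14 and Hlf under 12 of 13. The number of members called changed from 2 to 1 in Per1KO with no filter, from 1 to 3 in Per2KO with DESeq2, from 3 to 6 (day 3) and 3 to 5 (day 5) in the knockout libraries alone, and from 2 to 1 in the interaction at 5 CPM, which removes Hlf. Leaving out 1 library gave 1 to 3 in Per1KO, 1 to 3 in Per2KO, 3 to 6 and 3 to 5 on days 3 and 5, 0 to 1 for day 5 against day 3, and 0 to 2 in the interaction (0 without Per2KO day 0). The interaction without WT day 0 could not be fitted. No paired analysis was possible because the labels carry no replicate numbers, with 1 library per genotype and day; day is already a term of the additive fit.

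Directions turned in values that had not passed; 8.67 and 8.68 for Hlf, below, were called. By DESeq2, Hlf was at 1.07 in Per1KO, 1.21 in Per2KO, -1.57 on day 3 and -1.31 on day 5; with only the libraries compared it was at 0.064 in Per1KO and 0.091 in Per2KO; Dbp on day 5 against day 3 was at -0.062 in the knockout libraries alone. Leaving out 1 library at a time moved Per1KO against WT between -0.15 and 0.19 for Tef, -1.37 and 8.67 for Hlf, and -0.52 and 0.14 for Bhlhe41, and Per2KO against WT between -1.33 and 8.68 for Hlf and -0.54 and 0.11 for Bhlhe41. Per1KO against Per2KO ranged from -0.59 to 0.44 for Hlf, -1.01 to 0.12 for Nfil3 and -0.20 to 0.19 for Bhlhe41. Day 3 against day 0 ranged from -0.43 to 1.65 for Hlf and -0.98 to 0.31 for Nfil3, and day 5 against day 0 from -0.19 to 1.91 and -0.73 to 0.57. Day 5 against day 3 ranged from -0.11 to 0.23 for Dbp, -0.32 to 0.64 for Hlf, -0.16 to 0.61 for Nfil3 and -0.13 to 0.28 for Bhlhe41. The cause was not tested.

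With all annotated exons as the length, log2 activators over Nfil3 on days 0, 3 and 5 was 0.78, 0.20 and 0.44 in WT, 1.22, 2.39 and 2.64 in Per1KO and -0.77, 2.05 and 2.25 in Per2KO; log2 Bhlhe40 over Bhlhe41 was 1.76, 2.24 and 2.47, then 1.92, 1.23 and 1.22, then 2.14, 0.97 and 1.03.

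Over all genes, calls in Per1KO fell from 2575 to 1391 and in Per2KO from 2652 to 1263 with only the libraries compared. Day 3 against day 0 went from 4664 to 3105 there and to 7684 in the knockouts alone. Day 5 against day 3 went from 238 to 579 and 1393, to 733 with DESeq2 and to 370 with no filter, and the interaction from 659 to 1464 with DESeq2. Leaving out 1 library gave 1154 to 3602, 1158 to 3738, 2160 to 6331, 3728 to 7431, 0 to 742 and 51 to 2201 calls for Per1KO, Per2KO, day 3, day 5, day 5 against day 3 and the interaction. The floor of 3 counts is 0.424 to 0.660 CPM in WT and 0.0591 to 0.0731 CPM in the knockouts, which limits Hlf. The upper Poisson limits of its 0 counts in WT are higher than the floors, at 0.673 CPM on day 3 and 0.811 CPM on day 5.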
